A study of Homo sapiens with 10 samples.

Results

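Semaphorins, ephrins, netrins, SLITs and their receptors were followed in the human embryonic stem cell line H1, an established cell line, as it was differentiated towards hepatocyte-like cells. Members were genes of the deposited RNA-seq table chosen by name. Names had to begin with the symbols of the SEMA, PLXN, NRP, EPHA, EPHB, EFNA, EFNB, ROBO, SLIT, NTN or UNC5 families. The rule used no expression value, but the set was proposed with earlier results of these data known. Its shares against all genes are therefore no independent result. The name rule found 57 of 12125 genes, 31 ligands, 25 receptors and UNC50. UNC50 matches by its letters but codes for an unrelated protein of the Golgi membrane. The 10 libraries, 1 for each sampled day, span days 0 to 3, every other day from 5 to 13, and day 21. Day 0 was untreated, days 1 to 3 were under Activin A (100 ng per ml), days 5 and 7 under FGF4 (30 ng per ml) with BMP2 (20 ng per ml), and days 9 to 13 under HGF and KGF (20 ng per ml each). Day 21 was under Oncostatin M (OSM, 20 ng per ml). The label of the day 13 library names OSM, whereas in the protocol day 13 is the last day of HGF and KGF, and it is described here by the protocol. All libraries come from 1 line in serum-free culture. By the study's methods the base medium changed as well, from a stem cell maintenance medium to RPMI without insulin for Activin A. RPMI with insulin served for the next 2 steps and a hepatocyte culture medium for OSM. The comparison of days 0 and 3 thus holds more than Activin A. Medium and day changed together and cannot be told apart.

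Axon guidance cues are secreted or membrane-bound proteins that attract or repel growing nerve fibres, and the same molecules steer migrating cells and vessels outside the nervous system. Class 3 semaphorins are secreted and act through neuropilins paired with A-type plexins, and most other semaphorins are membrane proteins that bind plexins directly. Ephrins are held at the cell surface and signal to Eph receptor kinases on neighbouring cells, ephrin-A by a lipid anchor and ephrin-B by a transmembrane segment. Netrins act through DCC, neogenin and the UNC5 receptors, and SLITs through ROBO receptors.

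The values are GC-normalized scores without a unit, and the libraries have nearly the same distribution, so the depth of each library cannot be seen in them. The study's methods state an average depth and none per library. The library totals lay between 2330948 and 2362740 and the medians at 81 or 82. The maximum was 18734 in every library, and a gene at that value cannot be seen to rise further. Levels were compared between days for 1 gene at a time, because the values were not divided by gene length. A ranking by mean level within a family served only to choose genes for description. Differences between days are given as log2(value + 1), in which low genes appear to change less than they do, and a fold is the plain ratio of values. A fold taken on a value near 10 or lower is rough, because libraries differ most there. With a single library for each day there is no test, and "rose" and "fell" are used for a log2 difference of at least 2 (4-fold) with a larger value of at least 50, and a member was tested in a comparison where its larger value reached 50. To show how much libraries vary, the standard deviation of the log2 differences between days 9 and 11, which share a medium, was 0.93 around a value of 10, 0.51 around 50, 0.33 around 100 and 0.28 around 500, any true change between these days included. Of the pairs of successive libraries this one had the fewest genes past the limit, so the spread is a low measure. Over that pair 0 of the 44 members tested rose or fell, against 0.118% of all genes higher and 0.107% lower. The stage labels were checked with marker genes. The summed values of 6 stem cell genes went from 11161 on day 0 to 94 on day 21. Those of 7 definitive endoderm genes were highest on day 3 (22518, with 22189 on day 2). Those of 8 hepatic genes went from 153 on day 3 to 72269 on day 21. CER1 was at the maximum of 18734 on days 2 and 3, as were AFP, TTR and SERPINA1 on day 21. Gene by gene, all 7 definitive endoderm genes were higher by the limit on day 3 than on day 0. All 8 hepatic genes were higher on day 21 than on day 0. Of 10 neural genes 2 were found in the table, with a summed value of 62 on day 0 and 187 on day 3. Of these, STMN2 had 5 and 163 and MAP2 57 and 24 on those days, and their part in the day 3 values of the members was not tested.

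After 3 days of Activin A, the members that met the limit against day 0 were all higher. At day 3, 13 of the 41 members tested (of 57) had risen above day 0 and 0 had fallen, where 3.94% of all genes tested were higher and 2.16% lower. The median log2 difference was 0.53 over the members tested and -0.06 over all genes. Those that rose were 7 ligands (SEMA3E, SEMA5A, SEMA6D, EFNA2, EFNA5, NTN1 and NTN4) and 6 receptors (PLXNA2, PLXNA4, NRP1, NRP2, EPHA2 and EPHA4). Both netrins found in the table and both neuropilins were among them, and no UNC5 or ROBO receptor was. At the edge of the limit, EFNA2 was just inside (2.17, from 13 to 62) and UNC5D just outside (-1.97, from 288 to 73). A day earlier UNC5D was at 50, and in that library it met the limit as lower than on day 0. In the later comparisons the nearest pairs were UNC50 (-2.01) and EPHA6 (1.82) from day 3 to day 7, PLXNC1 (2.32) and SLIT3 (1.92) from day 7 to day 13, NTN4 (2.12) and SEMA3B (1.56) from day 13 to day 21, and SEMA3D (2.07) and PLXNB2 (1.49) from day 0 to day 21. Day by day, 1 member was higher after the first day (SEMA3E, against 1.02% of all genes) and 0 were lower (0.811%). From day 1 to day 2, 7 of 39 members rose (1.13% of all genes) and 0 fell (0.291%), PLXNA2, PLXNA4, EPHA4, EPHB3, NTN1, SEMA5B and SEMA6D. From day 2 to day 3, 0 rose (0.375%) and 0 fell (0.0702%).

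By day 7, under FGF4 and BMP2, members were called in both directions. Against day 3, 5 of 48 members tested were higher (5.63% of all genes) and 11 were lower (4.41% of all genes). The higher genes were SEMA3B, EFNA1, EPHA4, SLIT3 and ROBO2. The lower genes were SEMA3A, SEMA3E, SEMA3F, SEMA5B, NTN1, NTN4, PLXNA2, PLXNA4, EPHA2, ROBO1 and UNC50. In the steps within this span, 4 members rose (2.85% of all genes) and 6 fell (2.24%) from day 3 to day 5, and 1 rose (2.25%) and 4 fell (1.34%) from day 5 to day 7. From day 7 to day 13, under HGF and KGF, 4 of 45 members were higher (3.08% of all genes), which were SLIT2, EPHA7, PLXNC1 and SEMA6D, and 0 were lower (2.46% of all genes). SLIT2 alone rose between days 7 and 9 (0.757%), where 0 members fell (0.245%), and between days 11 and 13 there were 0 rises (0.224%) and 0 falls (0.0943%). From day 13 to day 21, 1 of 41 members was higher (NTN4, against 2.28% of all genes) and 1 lower (EPHA4, against 1.62%), shares near those of all genes. Comparisons that follow each other share a library, so that a high day 3 value enters both the rise before it and the fall after it. Between the ends of the course, 20 of 44 members were higher on day 21 than on day 0 (11.9% of all genes) and 6 lower (11.5% of all genes). The highest value of a member fell on day 3 for 10 members (17.5%, against 8.46% of all genes), on day 13 for 8 (14%, against 8.19%) and on day 21 for 14 (24.6%, against 18.6%). It fell on day 0 for 5 members (8.77%, against 16.7%) and on day 1 for 3 (5.26%, against 14.3%).

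**Figure D1:**
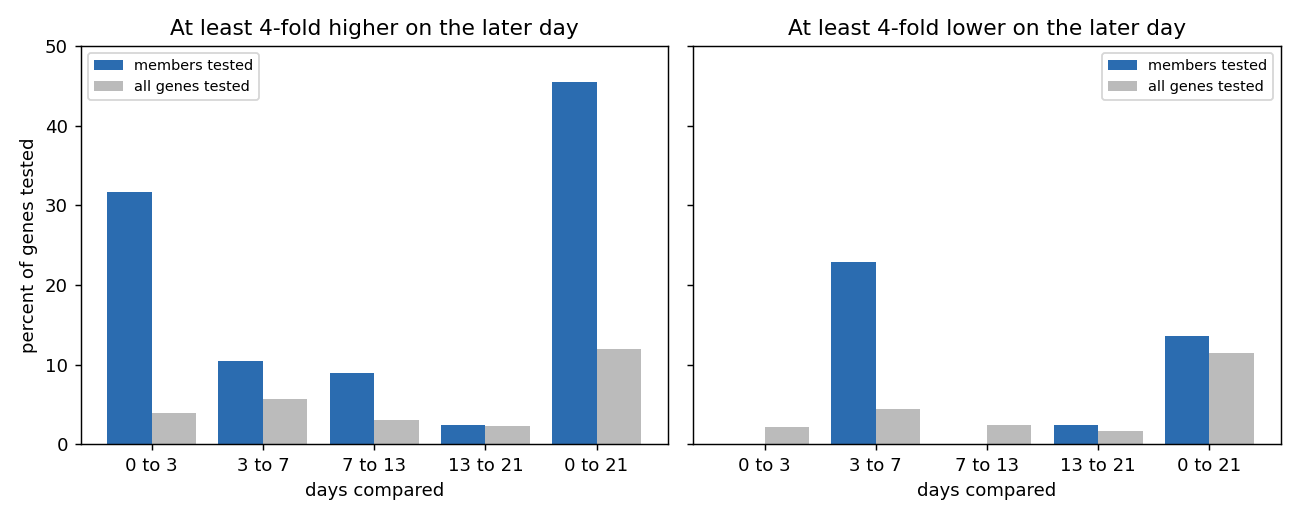
Percent of the genes tested that were higher (left) or lower (right) by at least 2 in log2(value + 1) on the later of 2 days, for members (blue) and all genes (grey), with 1 library per day and no error bars. The members' share higher on day 3 than on day 0 is 31.7% against 3.94%, and their share lower on day 7 than on day 3 is 22.9% against 4.41%.

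**Figure D2:**
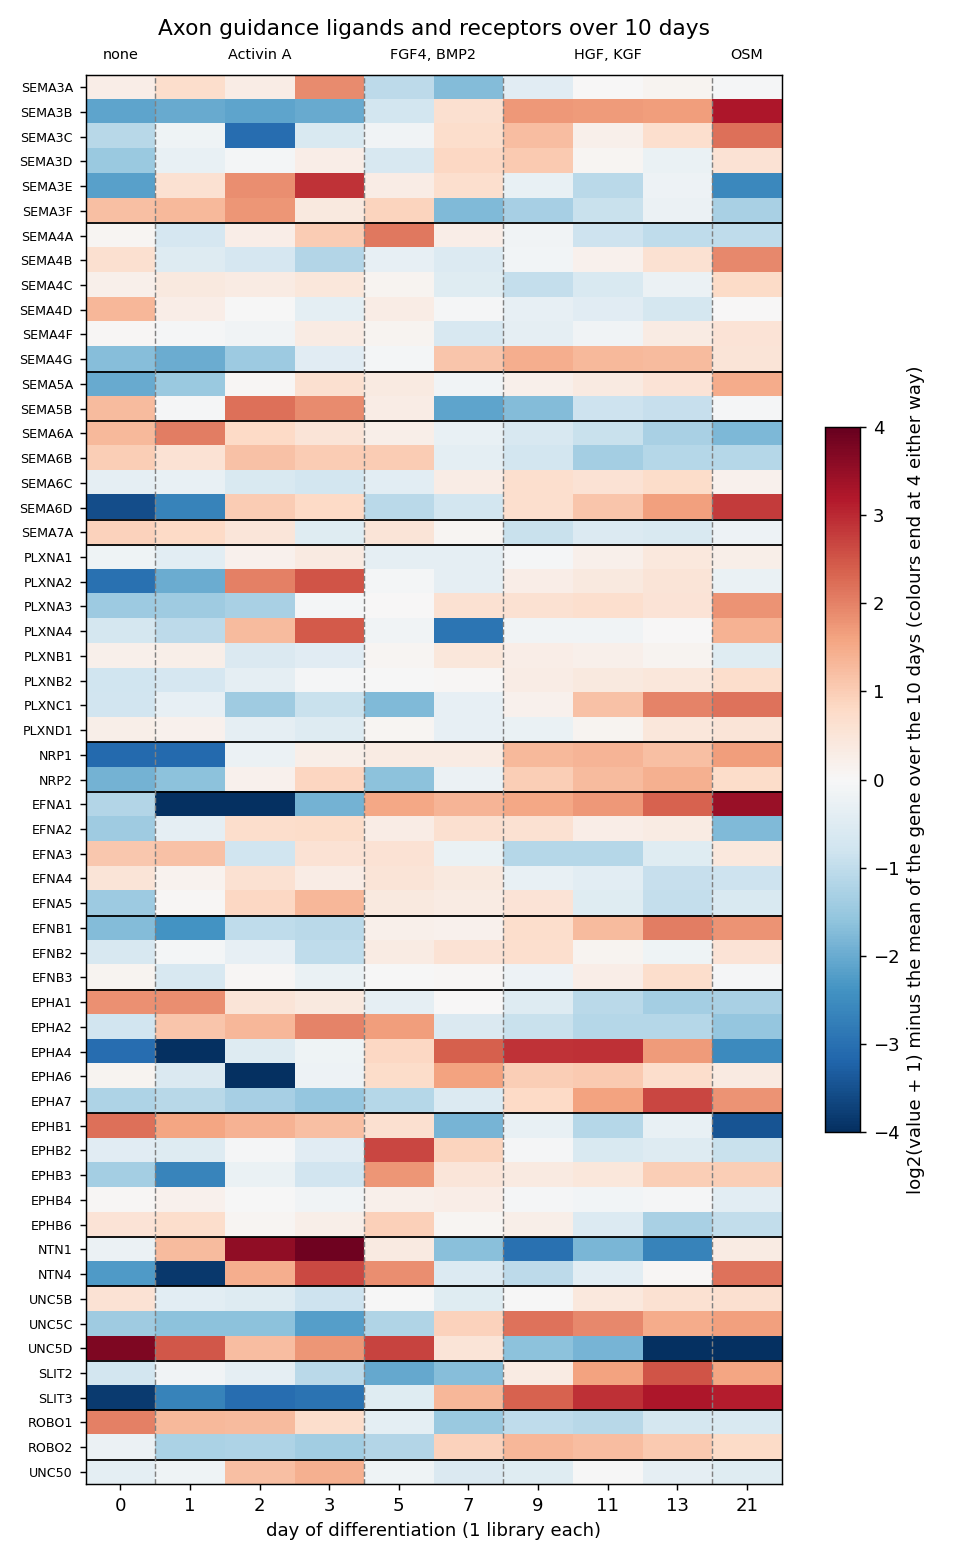
Each row is a member, grouped by family between the black lines, and each column a library. Colour is log2(value + 1) minus the mean of the gene over the 10 days, and dashed lines part the media. NTN1, PLXNA2 and SEMA3E are red at days 2 and 3, and SLIT3, SEMA3B and EFNA1 late in the course.

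Among the class 3 semaphorins, the secreted ligands of the neuropilins, the members followed different courses. SEMA3E, which can bind plexin D1 without a neuropilin, had values of 7, 54, 128 and 264 at days 0, 1, 2 and 3. It then stood at 43, 56, 28, 16, 30 and 5 at days 5 to 21. The rise to day 3 was 5.05 on the log2 scale, 37.7-fold in value. The day 9 to 11 spread was 0.42 at the mean of the 2 log2 values. Around a value of 10 it was 0.93, and the day 0 value of 7 was lower still, so the fold is rough. SEMA3A, the classic collapsing factor of growth cones, had 256, 350, 261 and 782 at days 0 to 3 and 102, 63, 154, 216, 231 and 204 from day 5 on. Its single high library was day 3, and its fall to day 7 was by 3.61 on the log2 scale. SEMA3B had 12, 13, 12 and 13 through day 3, then 33, 86, 188, 182, 179 and 530. It was flat under Activin A and 44.2-fold higher on day 21 than on day 0. SEMA3F, its neighbour on chromosome 3, went the other way, with 228, 241, 334 and 129 at days 0 to 3, 180 on day 5, and 28, 38, 52, 82 and 39 from day 7 on. In the intervals of the table the pair is 84.8 kb apart, SEMA3F from 50192478 to 50220199 and SEMA3B from 50304990 to 50308889. SEMA3C was higher on day 21 (228) than on day 0 (22), and SEMA3D too (104 against 24), with values that went up and down between.

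SEMA3E, SEMA3A and SEMA3D lie in a row on chromosome 7, from 82993222 to 84751251 in the table, with gaps of 309 and 801 kb. These intervals are not in GRCh38 coordinates (the submitters' notes name hg19 and mm10). The promoter position below therefore cannot be set against them. SEMA3E and SEMA3A were both highest on day 3, whereas SEMA3D was highest on day 9 (145). The first of the promoters that RefSeq lists for SEMA3E, on the minus strand of GRCh38.p14 at chr7:83649090-83649389, is printed because it was the only one of 5 such promoters, of members that rose by day 3 and fell by day 7, to hold more than 1 match. Capitals mark a match to the letters that GATA factors bind (AGATAA) and 1 to the core that FOXA factors bind (TGTTTAC), both read on the reverse strand.
SEMA3E: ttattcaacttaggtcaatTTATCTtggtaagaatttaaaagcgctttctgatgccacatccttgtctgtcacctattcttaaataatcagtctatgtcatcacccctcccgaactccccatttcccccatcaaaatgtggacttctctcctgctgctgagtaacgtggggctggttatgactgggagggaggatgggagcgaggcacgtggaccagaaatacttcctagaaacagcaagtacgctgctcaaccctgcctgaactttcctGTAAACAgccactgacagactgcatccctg
AGATAA was in 10.3% and TGTTTAC in 3.42% of all 35116 RefSeq promoters. Each ran from 250 bases before to 50 after a start, with both strands searched. Of the 78 promoters of members, 6 held AGATAA and 3 held TGTTTAC. A part of these motifs in the SEMA3E values was not tested.

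Semaphorins of classes 4 to 7, most of them membrane proteins, followed several courses. SEMA6A, a ligand of plexins A2 and A4, had 1554, 2636, 1107 and 918 at days 0 to 3 and then 756, 522, 412, 343, 258 and 182, lower at each day after day 1 than at the day before. SEMA6D, a ligand of plexin A1, had 5 and 10 at days 0 and 1, 140 and 120 at days 2 and 3, 32 and 41 at days 5 and 7, and 110, 150, 216 and 484 from day 9 to day 21. It thus had 2 separate high phases, with the later one the higher, and day 21 was 96.8-fold above day 0. The day 0 value of 5 is in the range where libraries differ most, so the size of this fold is rough. SEMA6B was lower on day 21 (44) than on day 0 (199). SEMA5A, which carries thrombospondin repeats, had 40 on day 0 and 253 on day 3, stayed between 148 and 238 from day 5 to day 13 and was 462 on day 21. SEMA5B, of the same class, was 72, 28, 138 and 110 at days 0 to 3, 36 on day 5, 6 on day 7 and 28 on day 21. Of the 6 class 4 semaphorins, SEMA4G alone met the limit, 41 on day 0 and 194 on day 21 with 368 on day 9. SEMA4B went from 52 on day 3 to 446 on day 21, and SEMA4A (6 to 60), SEMA4D (38 to 159) and SEMA4F (18 to 42) were highest on days 5, 0 and 21. SEMA6C stayed between 64 and 176, SEMA4C between 142 and 462, and SEMA7A, the lipid-anchored class 7 member, between 18 and 66.

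The plexins, receptors of the semaphorins, did not share 1 course. PLXNA2 had 23 and 47 at days 0 and 1, 781 and 1108 at days 2 and 3, and 180, 148, 228, 249, 272 and 160 from day 5 on. Its rise to day 3, 5.53 on the log2 scale and 48.2-fold in value, was the largest among the members and ranked 53 of 8934 genes. PLXNA4 had 13, 10, 54 and 124 at days 0 to 3, 20 on day 5, 2 on day 7, 20 to 22 from day 9 to day 13 and 59 on day 21. PLXNA3 rose later, from 55 on day 0 and 142 on day 3 to 224 on day 13 and 527 on day 21. PLXNA1 stayed between 446 and 789, a log2 range of 0.82. Of the 4 A-type plexins, PLXNA2 and PLXNA4 thus rose and fell over the same spans, and PLXNA1 and PLXNA3 did not. PLXNB2, of the B-type that binds class 4 semaphorins, went from 371 on day 0 to 1044 on day 21, a log2 difference of 1.49 that did not meet the limit. PLXNB1 stayed between 299 and 612 and PLXND1 between 196 and 400. PLXNC1, the receptor of SEMA7A, had 6 to 18 up to day 7, then 26, 53, 94 and 106. The PLXNA2 promoter is shown for the largest rise (minus strand of GRCh38.p14, chr1:208244335-208244634). It is rich in G and C (70.3%) and holds 29 CG pairs.
PLXNA2: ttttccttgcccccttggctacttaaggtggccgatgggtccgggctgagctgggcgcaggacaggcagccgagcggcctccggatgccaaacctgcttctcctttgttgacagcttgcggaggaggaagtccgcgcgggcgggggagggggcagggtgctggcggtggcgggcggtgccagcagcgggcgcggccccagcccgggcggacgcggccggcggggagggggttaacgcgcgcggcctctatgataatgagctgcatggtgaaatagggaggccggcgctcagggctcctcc
None of the 6 motifs searched (TGTNNATT for FOXH1, GGTGTGA for T-box factors, AGATAA for GATA, GTCTAGAC for SMAD, TGTTTAC for FOXA and AAAGTCCA for HNF4) was in this window, which says nothing of more distant sites. The shares of all promoters with a match were 11%, 3.45%, 10.3%, 0.202%, 3.42% and 1.14%.

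NRP2, a co-receptor of SEMA3F and of vascular growth factors, had 60, 72, 254 and 405 at days 0 to 3, 72 on day 5, and 189, 447, 540, 598 and 372 from day 7 on. The dip to day 5, where it fell by 2.48 on the log2 scale, was in the first library under FGF4 and BMP2. NRP1, the co-receptor of SEMA3A, had 5 and 5 at days 0 and 1, 43 to 63 from day 2 to day 7, and 126, 130, 118 and 164 from day 9. It did not dip, and day 21 was 32.8-fold above day 0, a rough fold because the day 0 value of 5 is low.

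**Figure D3:**
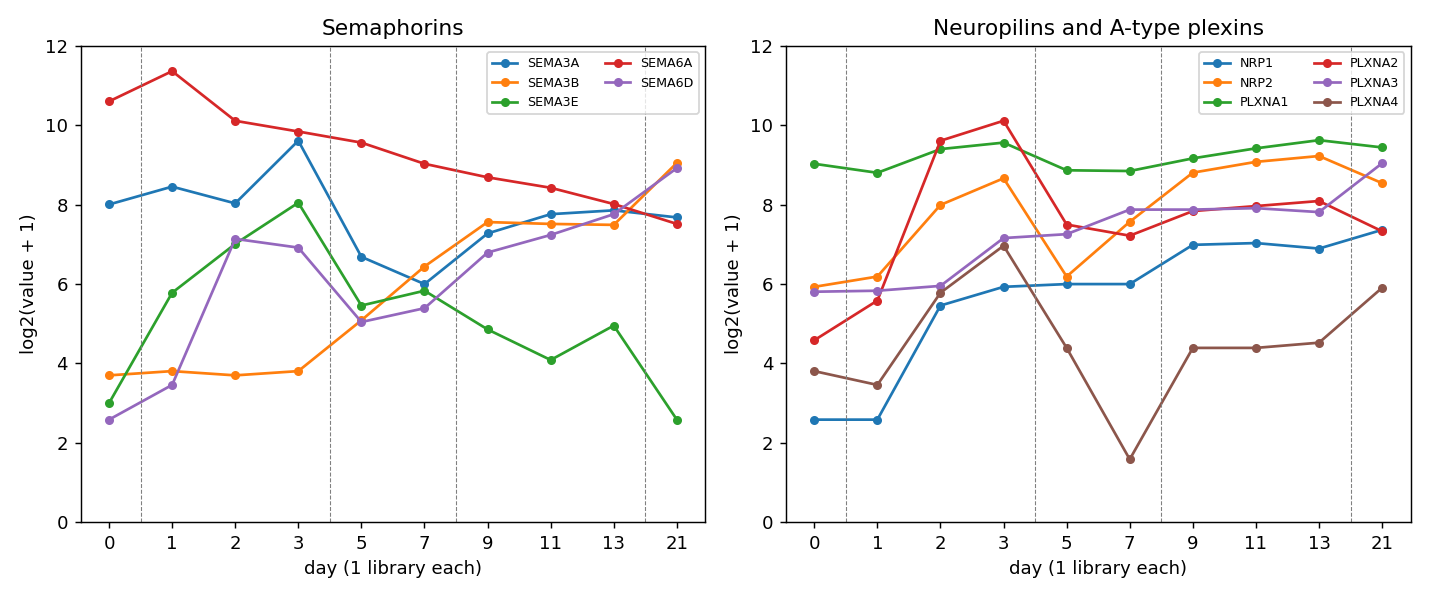
Lines give log2(value + 1) by day, 1 library each, for 5 semaphorins (left) and for the neuropilins and A-type plexins (right), with dashed lines between media. PLXNA2 and SEMA3E are highest on day 3 (1108 and 264), PLXNA1 is flat, and SEMA3B, SEMA6D and PLXNA3 end at their highest (530, 484 and 527).

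EphA receptors were highest on different days of the course. EPHA1 was highest at days 0 and 1 (686 and 714) and had 280, 255, 151, 196, 135, 92, 76 and 78 after that. EPHA2, the receptor of ephrin-A1, had 118 on day 0, 434, 512 and 804 under Activin A, 642 on day 5, and 136, 108, 90, 90 and 68 from day 7. It was still high on day 5, when NTN1 (40) and PLXNA2 (180) were not. EPHA4, which binds ephrins of both classes, had 18 and 6 at days 0 and 1, 108 and 137 at days 2 and 3, 278 and 822 at days 5 and 7, 1156 and 1184 at days 9 and 11, 512 on day 13 and 26 on day 21. Between the last 2 libraries it fell by 4.25 on the log2 scale, which ranked 11 among the falls of 8786 genes, and the value had gone from 1184 to 512 before that. EPHA7 had 55 to 112 up to day 7, then 284, 494, 1048 and 568, 9.36-fold higher on day 13 than on day 7. The highest values thus fell on days 0 and 1 for EPHA1, day 3 for EPHA2, day 11 for EPHA4 and day 13 for EPHA7. For EPHA4 the values of days 9 and 11 differ by less than the day 9 to 11 spread and give no order.

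The first promoter that RefSeq lists for EPHA2 (minus strand of GRCh38.p14, chr1:16156020-16156319) is shown because it held the 1 match to TGTNNATT among the same 5 promoters. Capitals mark that match, which reads on the reverse strand. TGTNNATT was in 11% of all 35116 RefSeq promoters and in 5 of the 78 promoters of members. A part of the motif in the EPHA2 values was not tested.
EPHA2: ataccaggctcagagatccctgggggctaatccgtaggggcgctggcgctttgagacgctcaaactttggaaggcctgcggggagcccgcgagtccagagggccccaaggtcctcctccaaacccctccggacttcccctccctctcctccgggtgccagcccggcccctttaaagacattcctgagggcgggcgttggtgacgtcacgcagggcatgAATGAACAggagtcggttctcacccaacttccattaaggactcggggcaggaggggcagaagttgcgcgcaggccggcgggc

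Among the EphB receptors, EPHB2 and EPHB3 were highest on day 5, the first library under FGF4 and BMP2. EPHB2 had 46 on day 3, 408 on day 5 and 120 on day 7, and stayed between 34 and 62 at the other days. EPHB3 had 10 to 56 up to day 3, 232 on day 5 and 88 to 135 after that. These were 2 of the 4 members that rose from day 3 to day 5, with EFNA1 and SLIT3, where 2.85% of all genes did. EPHB4, the receptor of ephrin-B2 on veins, had the smallest log2 range of all members, 0.69, with values between 330 and 534. EPHB1 was highest on day 0 (49) and listed at 0 on day 21, and neither EPHB1 nor EPHB6 (11 to 56) met the limit in any of the 5 comparisons.

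Of the ephrins, EFNA1 had 9, 0, 0 and 5 at days 0 to 3, then 64, 56, 65, 74, 114 and 245. It rose after Activin A, and its day 3 value of 5 is in the range where libraries differ most. EFNA3 and EFNA4 lie beside EFNA1 on chromosome 1, within 155036207 to 155107333 in the table, and did not follow it. EFNA3 stayed between 6 and 34 and EFNA4 between 14 and 42, with their highest values at days 1 and 2. EFNA5, another ligand of EphA receptors, had 18, 53, 92 and 130 at days 0 to 3 and 26 to 74 later. EFNA2 had 13 on day 0, 62 on day 3 and 10 on day 21. EFNB1 had 11 to 30 up to day 3, 72 and 70 at days 5 and 7, and 102, 149, 260 and 220 from day 9 on, 12.2-fold higher on day 21 than on day 0. EFNB2, the arterial ligand of EPHB4, stayed between 49 and 162 and EFNB3 between 45 and 115.

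**Figure D4:**
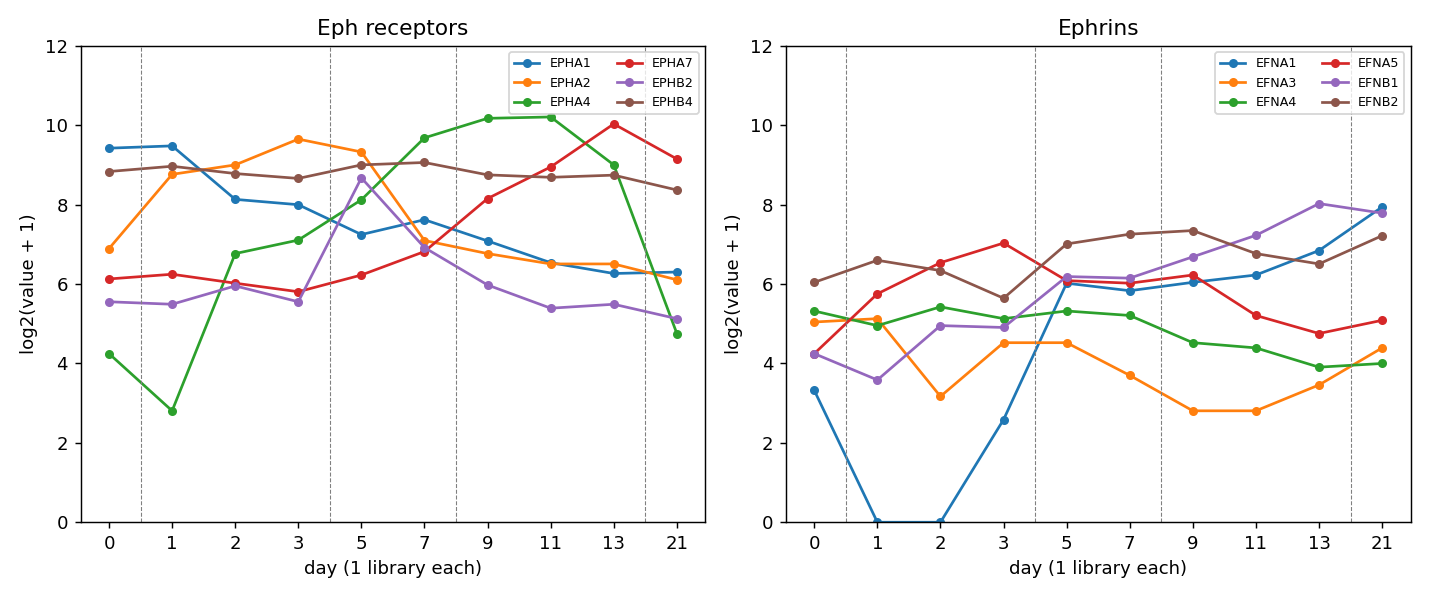
Lines give log2(value + 1) by day, 1 library each, for 6 Eph receptors (left) and 6 ephrins (right), with dashed lines between media. Of the receptors drawn, EPHA1 is highest at days 0 and 1, EPHA2 on day 3, EPHB2 on day 5, EPHA4 at days 9 and 11 and EPHA7 on day 13. The 2 top values of EPHA1 and of EPHA4 are close and give no order, and EPHB4 is nearly flat. EFNA1 and EFNB1 climb and EFNA3 and EFNA4 do not.

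Both netrins found in the table rose early and the UNC5 receptors found there did not. NTN1 had 26, 75, 371 and 466 at days 0 to 3, 40 on day 5, 9, 3, 8 and 4 from day 7 to day 13, and 39 on day 21. Its rise to day 3 was 17.9-fold and day 3 was 51.8-fold above day 7, by which it fell by 5.55 on the log2 scale against a day 9 to 11 spread of 0.37. NTN4, a netrin of basement membranes, had 2, 0, 39 and 90 at days 0 to 3, 52 and 9 at days 5 and 7, 6 to 14 up to day 13 and 64 on day 21. UNC5D was highest on day 0 with 288, had 122, 50, 73 and 140 at days 1, 2, 3 and 5, and was at 30, 6 and 5 before it was listed at 0 at days 13 and 21. UNC5B stayed between 64 and 179. UNC5C had 3 to 7 up to day 5 and 34, 82, 69, 51 and 57 from day 7. At day 3, where NTN1 was highest, UNC5B was at its lowest (64) and UNC5D at 73, above its day 2 value of 50. UNC5B had 80 on day 2, a log2 difference of -0.32 against a day 9 to 11 spread of 0.34. The UNC5C value of 3 is in the range where libraries differ most. NEO1, which codes for neogenin, another netrin receptor, had 217 on day 0, 308 on day 3, 1184 on day 5 and 936 on day 21. DCC was not found in the table. The name match UNC50 had 53 on day 0, 188 on day 3 and 46 on day 7.

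Both SLIT ligands found in the table rose after day 3, SLIT3 before SLIT2, and ROBO1 fell. SLIT2 had 182, 280, 240 and 144 at days 0 to 3, 74 and 94 at days 5 and 7, and then 382, 938, 1739 and 922. From day 7 to day 13 it rose 18.5-fold (4.20 on the log2 scale, spread 0.25), rank 63 of 8892 genes. SLIT3 had 9 to 21 up to day 3, then 99, 350, 726, 1066, 1328 and 1251. It began earlier, on day 5, and was nearly as high on day 21 as on day 13. Day 21 was 139-fold higher than day 0, where the low value of 9 makes the fold rough. ROBO1 had 960, 577, 570 and 384 at days 0 to 3, 178 on day 5, 84 on day 7 and 109 to 152 from day 9 on. ROBO2 had 78 on day 0, 34 to 40 from day 1 to day 5, and 175, 231, 216, 189 and 156 after. The receptors lie 947 kb apart on chromosome 3 (ROBO2 from 75955846 to 77699114 on the plus strand, ROBO1 from 78646391 to 79816965 on the minus strand) and differed in direction between days 3 and 7, with log2 differences of -2.18 for ROBO1 and 2.33 for ROBO2.

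In GRCh38, SLIT2 and SLIT3 each hold within an intron, on their own strand, a precursor of the same microRNA (MIR218-1 at chr4:20528275-20528384 and MIR218-2 at chr5:168768146-168768255). It is printed because both of its host genes rose, with its seed, bases 2 to 8, in capitals.
hsa-miR-218-5p: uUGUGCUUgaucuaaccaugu
The microRNA itself was not analysed here.

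Some markers of other cell types were also higher on day 13 than on day 7, the span in which SLIT2 and EPHA7 rose and SLIT3 (1.92) was just outside the limit. The summed value of 8 stromal genes, all found, was 4304 on day 7, 19926 on day 13 and 23061 on day 21, with 4 of 8 higher on day 13 than on day 7 by the same limit, and 0 of them at 0. Of 8 endothelial genes 7 were found, their sum was 477 on day 7, 2170 on day 13 and 1467 on day 21, and 2 of 7 were higher. Of 6 macrophage genes 2 were found, with sums of 6 on day 7, 50 on day 13 and 324 on day 21, and PTPRC was at 0 on days 7 and 13. The sum of the 2 neural genes found was lower, 35 on day 7 and 14 on day 13, with MAP2 at 26 and 0 and STMN2 at 9 and 14. Of the 8 hepatic genes 3 were higher (TTR, SERPINA1 and TF), and their sum gives no measure of change here, because AFP was at the maximum of 18734 from day 7 on and TTR from day 9. In bulk RNA a change in the number of cells of a type and a change of RNA per cell cannot be told apart, and the part of these cell types in the values of SLIT2, SLIT3 and EPHA7 was not tested. At day 3 the stromal sum was 456 against 2564 on day 0, of which THY1 held 147 and 2164. THY1 went against the rest of its list. It had 12 on day 21, whereas 7 of the 8 stromal genes were higher on day 21 than on day 0 by the limit. The day 0 sum is thus mostly 1 gene and gives no measure of stromal cells. The endothelial sum was 769 against 680, with VWF going from 3 to 309 and KDR from 517 to 240, and the part of these cells in the day 3 values of the members was not tested.

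**Figure D5:**
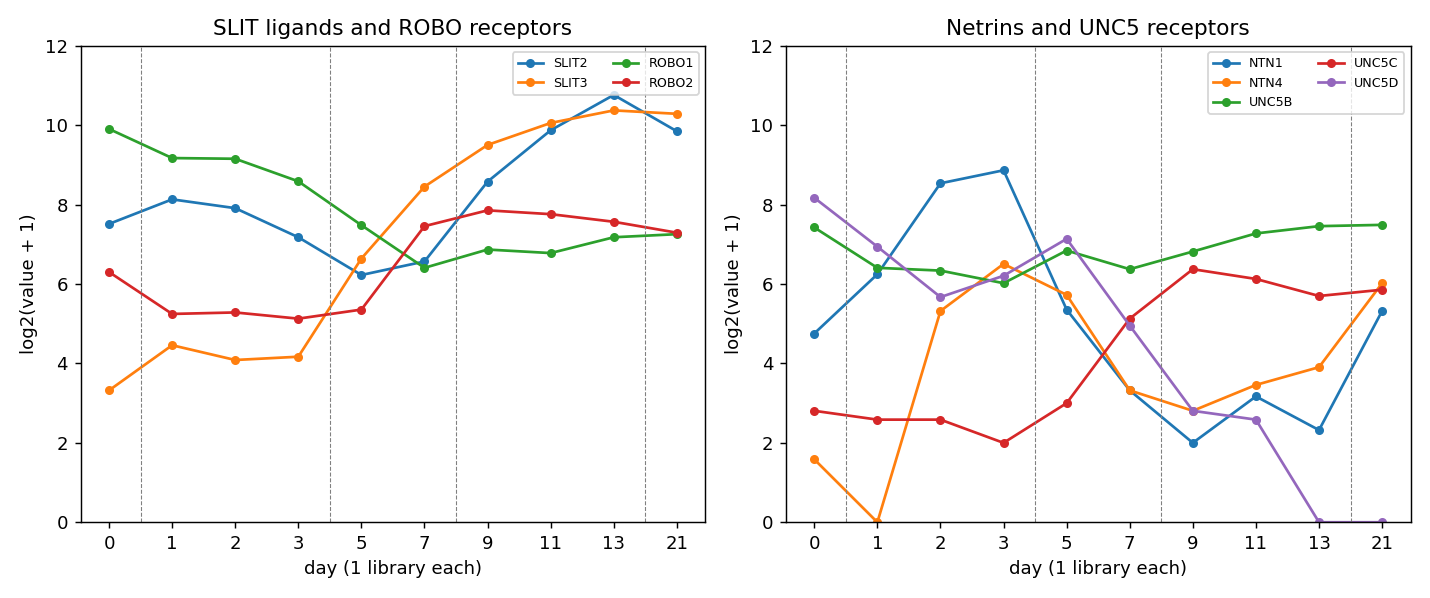
Lines give log2(value + 1) by day, 1 library each, for SLIT and ROBO genes (left) and for netrins and UNC5 receptors (right), with dashed lines between media. SLIT2 and SLIT3 climb to 1739 and 1328 on day 13 and ROBO1 goes from 960 to 84 by day 7, while NTN1 is high only at days 2 and 3 (371 and 466).

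Other genes of the pathway, 45 co-receptors and signal carriers, were counted in the same way. Of the 39 found, 29 were tested between days 0 and 3, where 2 rose (FLRT2 and FLRT3, against 3.94% of all genes) and 1 fell (PAK1, against 2.16%). Between days 3 and 7, 4 of 34 rose (FLRT2, FLRT3, MICAL2 and RND1, against 5.63%) and 3 fell (L1CAM, RGMA and RRAS, against 4.41%). FLRT3, a membrane ligand of UNC5 receptors, had 18 on day 0, 176 on day 3, 3438 on day 5 and 1439 on day 21. FLRT2, of the same family, had 8 on day 0, 126 on day 3 and 684 on day 7, and stayed between 589 and 714 after. Between days 7 and 13, 2 of 34 were higher (L1CAM and RRAS, against 3.08%) and 1 was lower (SRGAP1, against 2.46%). Between days 13 and 21, 0 of 31 met the limit, against 2.28% of all genes higher and 1.62% lower. Between days 0 and 21, 5 of 34 were higher (FLRT2, FLRT3, MICAL2, NEO1 and RND1, against 11.9%) and 3 lower (CRMP1, PAK1 and TIAM1, against 11.5%).

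The remaining members are given by their range. In all, 36 of the 57 (63.2%) met the limit in at least 1 of the 5 comparisons, as did 24.9% of all genes, and 21 in none. Among those 21 the log2 range over the 10 days went from 0.69 (EPHB4) to 6.46 (EPHA6). EPHA6 was between 0 and 87, and EPHB2, with a range of 3.55, was missed since its high day is not among the days compared. The highest value was under 50 for 4 members, and 5 members were listed at 0 in at least 1 library.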

How the data were processed

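Total RNA of H1 cells was sequenced on 10 days with 1 library per day. The authors aligned the reads with Bowtie2 2.2.0 and RSEM 1.2.17, and EDASeq served for the normalization by GC content. They deposited whole numbers for 12125 genes, which are scores and not counts, so no count test was used. The study's methods give a mean depth, and the depth of each library is not given in the sources used here. The submitters' processing notes name the builds hg19 and mm10. The study's methods give mm10, a mouse build, for the transcriptome aligned to, whereas the identifiers are human (57 of 57 members in the reference name table). Intervals are those of the table, which are not GRCh38 coordinates, and 13 of 57 span under 80% of the gene in GENCODE 29. The interval is 4.2 kb for PLXNA2, 7.55 kb for EPHA4, 1.1 kb for EPHA1 and 0.561 kb for SEMA4G. Whether reads were counted by strand is not given in the sources used here.

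Values were compared as log2(value + 1), and genes with a larger value of at least 50 and a log2 difference of at least 2 were counted. The spread between days 9 and 11 is the SD over the 500 genes nearest in level. For a difference, the level is the mean of the 2 log2 values. A low value at 1 end therefore has a wider spread than the one given. Members counted in at least 1 of 5 comparisons, and the member with the highest mean log2 level of each family, are named in full. Members and lists were chosen with earlier results of these data known, and EPHB2, EFNA3, EFNA4, FLRT2, FLRT3 and NEO1 were picked for description after their values were seen. Promoters (49 of 57 members matched) and microRNAs came from RefSeq, GRCh38.p14. The counting code was run on simulated data. The planted changes were well past the limit, in well expressed genes, with less noise than between days 9 and 11. This checks the code and says nothing of how reliable the calls are. Python 3.11.15, numpy 2.4.6, pandas 2.3.3 and matplotlib 3.10.9 were used.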

Additional observations from a re-analysis of the deposited data

How the results depend on the processing

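With 1 library per day no replicate could be left out, and no difference has a test. No paired analysis was possible because no day has a second library. With a pseudocount of 5, EFNA2 (1.90, days 0 to 3), UNC50 (-1.92, days 3 to 7), NTN4 (1.86, days 13 to 21), SEMA3D (1.91) and PLXNA4 (1.83, both days 0 to 21) no longer met the limit, and with libraries scaled by the median of ratios UNC50 (-1.97) and SEMA6B (-1.97, days 0 to 21) did not. Scaling shifted the median of all genes between days 0 and 21 from -0.12 to 0.06. With a pseudocount of 5, 14 of the 61 differences that met the limit moved by more than the day 9 to 11 spread, and 1 did with 0.1.

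The counts of members were within 1.5 times of those given under 48 of 68 alternatives. The percent in brackets is that of all genes at the same setting. With a larger value of at least 200, 6 of 19 members tested were higher on day 3 than on day 0 (4.76%), 2 of 21 higher (6.85%) and 6 lower (4.86%) on day 7 than on day 3, 0 of 23 higher on day 21 than on day 13 (3.24%), and 11 of 24 higher on day 21 than on day 0 (15.4%). With a log2 difference of at least 1, 8 of 41 were lower on day 3 than on day 0 (9.07%), 14 of 48 higher on day 7 than on day 3 (13.2%), 13 of 45 higher (9.65%) and 5 lower (8.21%) on day 13 than on day 7, and 8 of 41 higher (8.57%) and 2 lower (9.08%) on day 21 than on day 13. With the earlier library of each medium (days 2, 5 and 11 for 3, 7 and 13), 1 of 40 was lower in the first step (1.63%), 3 of 46 lower in the second (2.09%), 10 of 47 higher (4.96%) and 6 lower (3.14%) in the third, and 2 of 42 higher in the last (2.87%). Without a filter on low values, of 57 members 1 was lower on day 13 than on day 7 (3.37%), and 2 were higher (2.48%) and 4 lower (3.04%) on day 21 than on day 13. With a pseudocount of 5, 0 of 41 were higher on day 21 than on day 13 (1.93%).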

Other observations

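STMN2, a tubulin-binding protein of growing nerve fibres and 1 of the 2 neural genes found, had 5, 5, 13 and 163 at days 0 to 3, 41 on day 5, 2 to 14 from day 7 to day 13 and 120 on day 21. L1CAM, an adhesion molecule that partners neuropilin 1, had 196 on day 0, 460 on day 3, 26 on day 7 and 108 on day 13. MAP2, the other neural gene, had 57 on day 0 and 24 on day 3. CRMP1, a carrier of semaphorin signals, had 498 on day 0, 474 on day 3, 139 on day 7 and 68 on day 21, and PAK1, a kinase of the actin skeleton, 756, 179, 124 and 140. MICAL2, an actin-oxidizing enzyme, rose from 9 on day 0 to 122 on day 7 and 344 on day 21. These genes were singled out after their values were seen, and each day has 1 library.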
